A study of Mus musculus with 6 samples.

Results

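A set of 10 genes of innate RNA and Toll-like sensing was followed in the RNAseq data of mouse pancreatic fibroblasts. They are the Toll-like receptor genes Tlr2, Tlr3 and Tlr4, the adaptor genes Myd88 and Ticam1, the helicase genes Ifih1 and Dhx58, their adaptor gene Mavs, and Trim25 and Zbp1. A member is a row of the count table whose symbol is one of these names. All 10 members were found among the 14831 genes listed, and all 10 passed the filter on low counts.

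The data come from 6 libraries of immortalized fibroblasts, each from its own culture well grown to confluence, 3 carrying the genotype label WT and 3 the label Gli2-/-;Gli3-/-, called labelled WT and labelled KO here. Per the study's methods, such lines grew out of the pancreas of adult Gli floxed mice and were immortalized before infection, and the labels give the strain as Mixed. The control cells received an Ad5 CMV-eGFP adenovirus and a dsRed lentivirus, and the KO cells Ad5 CMV-eGFP and Ad5 CMV-Cre, after which infected cells were sorted. The viruses received and the genotype therefore cannot be told apart in this comparison. Nothing in the sources used here says that the 3 wells of a group hold separately made lines, so the p-values measure the spread between wells. No ligand for a Toll-like or RNA sensor was part of the growth protocol.

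Toll-like receptors are membrane proteins that bind microbial products. TLR2 reads bacterial lipoproteins and TLR4 reads lipopolysaccharide at the cell surface, while TLR3 reads double-stranded RNA in endosomes. MyD88 carries the signal of most of these receptors towards NF-kB, and TRIF, the product of Ticam1, carries that of TLR3 and part of that of TLR4 towards interferon. In the cytosol, double-stranded RNA is bound by MDA5 (Ifih1) and its relatives RIG-I (Ddx58) and LGP2 (Dhx58). Of these, MDA5 and RIG-I signal through MAVS on mitochondria. TRIM25 is a ubiquitin ligase linked to RIG-I activation, and ZBP1 binds Z-form nucleic acid and can engage RIPK3. Fibroblasts use both systems, and several of the sensor genes are themselves raised by interferon.

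The stretch before the transcription start is shown for the 3 members that were higher under the KO label and have sequence outside annotated exons. Counts per gene do not show which start was used, and the Myd88 stretch lies inside the gene as annotated in GENCODE M21. The sequences are from RefSeq on GRCm38.p6, whose table holds 7 of the 10 members (Tlr2, Tlr3, Myd88, Ticam1, Ifih1, Mavs and Trim25). Tlr4, Dhx58 and Zbp1 are not in it. Each runs 5′ to 3′ towards the start, with exons of GENCODE M21 left out and the matched motifs of Myd88 in capitals. The positions are chr2:62646256-62646505 for Ifih1, chr3:83841768-83841858 for Tlr2 and chr9:119340042-119340268 for Myd88, all on the minus strand.
Ifih1: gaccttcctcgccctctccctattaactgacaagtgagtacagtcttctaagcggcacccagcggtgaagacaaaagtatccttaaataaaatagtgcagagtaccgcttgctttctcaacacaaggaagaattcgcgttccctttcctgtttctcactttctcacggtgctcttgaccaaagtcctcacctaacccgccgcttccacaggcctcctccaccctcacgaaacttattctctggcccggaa
Tlr2: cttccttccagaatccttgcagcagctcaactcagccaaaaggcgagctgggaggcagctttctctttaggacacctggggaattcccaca
Myd88: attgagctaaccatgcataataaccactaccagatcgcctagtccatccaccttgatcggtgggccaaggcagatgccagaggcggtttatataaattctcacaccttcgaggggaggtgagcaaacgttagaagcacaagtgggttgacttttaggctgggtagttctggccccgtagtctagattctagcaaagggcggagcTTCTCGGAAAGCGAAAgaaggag

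In windows of 300 bases, 250 before and 50 after each start, 4 motifs were searched on both strands. The interferon-stimulated response element, searched as a pair of GAAA with 2 bases between, was in 2 of the 7 member windows (Ifih1 and Myd88) and in 3.44% of all 32851 windows. In Ifih1 it lies from position 33 to 42 after the start, inside the gene, and in Myd88 from -40 to -31. A gamma-activated site, TTCNNNGAA, was in the Myd88 window from -46 to -38, where it overlaps the first motif, and in 8.30% of all windows. A kappaB site, searched as GGGA and TTCC with 2 bases between, was in the Tlr3 window from -211 to -202 and in 1.47% of all windows. Other forms of the kappaB site were not searched, and gggaattccc in the printed Tlr2 stretch does not match this pattern. The GLI site GACCACCCA was in 0 of the 7 member windows and 0.253% of all. These are matches of letters within short windows, which say nothing about whether a factor binds. The match of Ifih1 (chr2:62646206-62646235, minus strand) and that of Tlr3 (chr8:45410572-45410601, minus strand, in an exon of GENCODE M21) are shown with the bases around them.
Ifih1 response element: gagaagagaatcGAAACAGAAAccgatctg
Tlr3 kappaB match: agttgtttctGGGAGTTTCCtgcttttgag

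Library totals ranged from 31728420 to 33905521 counts under the WT label and from 32781730 to 41035931 under the KO label. Levels are given as CPM, read counts relative to library size after edgeR's TMM scaling. In all 14289 genes were tested with edgeR's quasi-likelihood test, and p-values were adjusted by the Benjamini-Hochberg method over all of them. A gene counts as called here when the adjusted p is below 0.05 and the fold is 1.5 or more. A two-sided exact permutation test of 1 gene in 3 libraries against 3 cannot go below p = 0.1. The targeted genes check the labels, and they go against them: Gli2 had 27.1 ± 1.19 CPM under the WT label against 56.2 ± 1.96 under the KO label (SD, n = 3 each), and Gli3 had 12.5 ± 0.0440 and 40.8 ± 1.64. These are counts over whole genes, and the exons that Cre removes are not given in the sources used here, so a missing exon could not be seen. Hedgehog target genes were lower under the KO label: Ptch1 had 235 ± 10.3 and 81.8 ± 4.61 CPM, Gli1 had 1.31 ± 0.169 and 0.249 ± 0.141, and Hhip had 39, 42 and 44 counts against none in any of the KO-labelled libraries, which is at least 14.2-fold lower taking 3 counts per library as the floor. All directions given follow the labels, and each would turn if the labels of the groups were exchanged.

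The fibroblast label was checked against 12 marker genes. Col1a1, a chain of the main fibrillar collagen, averaged 15982 and 16113 CPM in the 2 groups and Vim 4285 and 3912. Pdpn and Fap were not analysed here. Of the 9 markers tested 5 were called lower, beside 6.10% of all tested genes. These were Lum (11.7 to 0.240 CPM) and Dcn (2643 to 905), which encode proteoglycans of the matrix, the collagen gene Col3a1 (8970 to 4678) and the growth factor receptor genes Pdgfra (301 to 162) and Pdgfrb (570 to 359). Of 13 macrophage and myeloid markers 9 have no row among the genes analysed here, Ptprc, Adgre1, Itgam and Spi1 among them. The summed level of the other 4 was 39.7 to 46.0 CPM under the WT label and 38.8 to 40.4 under the KO label, most of it Lyz2. The 6 epithelial markers present of 12 summed to 21.9 to 24.4 CPM and 47.2 to 48.0 CPM. Of 5 tested, 3 were called higher, beside 11.6% of all tested genes, and Epcam, Krt18 and Krt19 were not analysed here. By the p limit alone 4 were higher and 1 lower, beside 29.9% and 28.8% of all. The lower one was Sox9, at a log2 fold change of -0.50. Of 7 endothelial markers Vwf alone had a row, averaging under 2 CPM in both groups and not called. The part of these cells in the results was not tested. In bulk RNA, fewer cells with a transcript and fewer transcripts per cell cannot be told apart.

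Among the members, Ifih1 and Tlr2 were called higher in the libraries labelled KO, and Dhx58 and Zbp1 lower. Thus 2 of 10 rose, where 11.6% of all tested genes did, and 2 of 10 fell, where 6.10% did. Tlr3 and Myd88 (higher) and Tlr4 and Trim25 (lower) had an adjusted p under 0.05 with a change under 1.5-fold. That brings the members under the p limit alone to 4 higher and 4 lower, beside 29.9% and 28.8% of all genes. Ticam1 and Mavs did not pass. The groups did not overlap for 8 of the 10 members, as for 64.2% of all tested genes. The median log2 fold change was -0.01 over the members and 0.00197 over all tested genes, and nothing particular to the members is read from these counts.

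**Figure D1:**
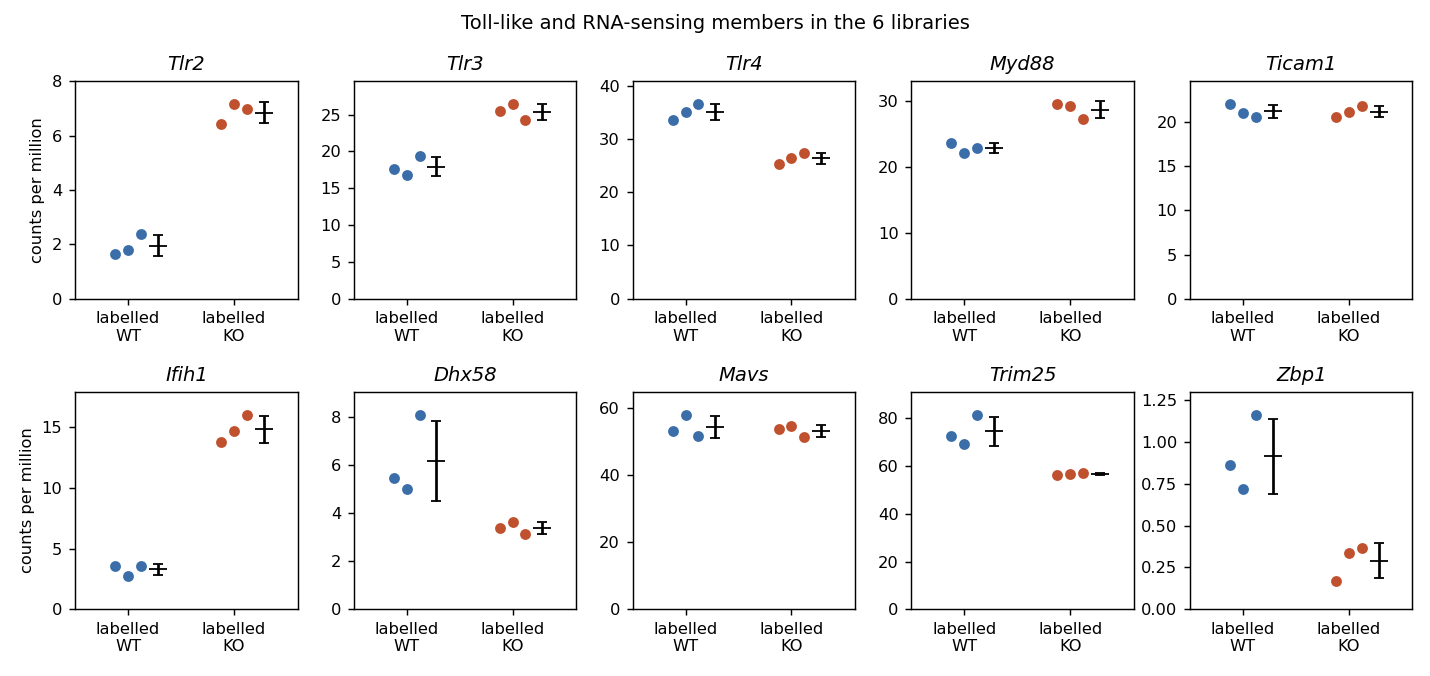
CPM (y axes, each from 0) of the 10 members in the 3 libraries labelled WT (blue) and the 3 labelled KO (red), 1 point a library in the order of replicate, with the mean and SD as a black mark. Ifih1 and Tlr2 are higher in every library labelled KO, Dhx58 and Zbp1 lower, and the points of Ticam1 and Mavs overlap.

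Of the surface receptors, Tlr2 changed most. Tlr2 (chromosome 3 from 83836272 to 83841767 by GENCODE M21, build GRCm38.p6, as for all gene positions) had read counts of 52, 60 and 76 under the WT label against 227, 298 and 230 under the KO label. That is 1.94 ± 0.384 and 6.84 ± 0.385 CPM (SD, n = 3 each). The groups are well apart, and the third library labelled WT is the highest of its group. The log2 fold change of Tlr2 was 1.82 ± 0.13 (SE, the standard error, edgeR adjusted p = 9.35e-08), or 3.52-fold, and 3.45% of all tested genes had a change at least as high.

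TLR2 works as a pair with TLR1 or TLR6, and these partners had few counts. Tlr6 had 45, 44 and 42 counts under the WT label and 58, 75 and 61 under the KO label, a log2 fold change of 0.38 ± 0.15 (SE, edgeR adjusted p = 0.0476). Tlr1 had 17, 11 and 16 against 16, 28 and 23 counts, and its adjusted p was 0.232. Tlr1 and Tlr6 are neighbouring genes with close sequence, among which reads may have been divided. Tlr5, the receptor for flagellin, had 50, 57 and 50 counts under the WT label and 172, 197 and 149 under the KO label, and rose 2.89-fold (log2 fold change 1.53 ± 0.12, SE, edgeR adjusted p = 1.88e-07).

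The receptor for lipopolysaccharide had a lower level under the KO label, without passing the fold limit. Tlr4 (chromosome 4 from 66827584 to 66930284) had read counts of 1050, 1172 and 1164 under the WT label against 895, 1101 and 900 under the KO label, giving 35.0 ± 1.48 and 26.3 ± 0.998 CPM. Every library labelled KO had fewer CPM than any labelled WT, although the deepest KO library had 1101 raw counts, more than the lowest labelled WT. The log2 fold change of Tlr4 was -0.41 ± 0.05 (SE, edgeR adjusted p = 9.43e-06). Its helper genes Ly96, Cd14 and Lbp also had lower CPM under the KO label. Of other listed helpers, Hsp90b1 was higher, at a log2 fold change of 0.24 (edgeR adjusted p = 8.89e-06). Cnpy3 was lower, at -0.36 (edgeR adjusted p = 3.51e-06), and both were under the fold limit. MD-2 (Ly96), which holds the lipid with TLR4, had a log2 fold change of -0.42 (adjusted p = 0.00846) and the co-receptor Cd14 one of -0.18 (adjusted p = 0.0239), both under the fold limit. Lbp, which encodes the serum protein that delivers lipopolysaccharide to CD14, fell 3.11-fold. It had 7896, 8568 and 7523 counts under the WT label and 2871, 3319 and 2591 under the KO label, giving 248 ± 10.7 and 79.7 ± 1.30 CPM (adjusted p = 2.10e-12 from edgeR).

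For the endosomal receptor, Tlr3 (chromosome 8 from 45395665 to 45411080) had read counts of 553, 565 and 617 under the WT label against 904, 1100 and 800 under the KO label, giving 17.9 ± 1.26 and 25.4 ± 1.09 CPM. The groups did not overlap, and the log2 fold change of 0.50 ± 0.06 (SE, edgeR adjusted p = 1.11e-05) is under the fold limit. An antisense gene shares 7.32% of the exonic bases of Tlr3, and whether reads were counted by strand is not given in the sources used here. Unc93b1, whose product escorts TLR3 and other endosomal receptors out of the endoplasmic reticulum, had 7, 4 and 3 counts under the WT label and 31, 29 and 31 under the KO label. It rose 5.61-fold (log2 fold change 2.49 ± 0.34, SE, edgeR adjusted p = 4.02e-05) at a low level.

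Of 18 other receptors and helpers, 9 were tested. Tlr5 and Unc93b1 rose, Lbp fell, and 5 of the other 6 had an adjusted p under 0.05 with a smaller change. Of all tested genes, 11.6% were called higher and 6.10% lower, and 58.7% had an adjusted p under 0.05. Tlr7, Tlr8, Tlr9, Tlr11, Tlr12 and Tlr13 were not analysed here. The median log2 fold change of the 9 was 0.235 (0.00197 over all tested genes).

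Neither adaptor gene was called. Myd88 (chromosome 9 from 119335934 to 119341411) had read counts of 737, 741 and 729 under the WT label against 1042, 1218 and 896 under the KO label, giving 22.8 ± 0.697 and 28.6 ± 1.27 CPM. Its groups did not overlap, and its log2 fold change was 0.33 ± 0.05 (SE, edgeR adjusted p = 9.32e-05). Acaa1a, on the opposite strand, shares 11.3% of the exonic bases of Myd88 and had a log2 fold change of 0.37. The part of shared reads in the Myd88 value was not tested. Tirap, which bridges TLR2 and TLR4 to MyD88, had a log2 fold change of 0.30 (adjusted p = 1.91e-04), and the kinase gene Irak4, next in the chain, one of -0.15 (adjusted p = 0.0198). Ticam1 (chromosome 17 from 56269319 to 56276786) had 689, 703 and 657 counts under the WT label and 729, 882 and 718 under the KO label. The CPM ranges of Ticam1 overlap, at 21.2 ± 0.723 and 21.2 ± 0.581, and its adjusted p was 0.985 from edgeR with a standard error of 0.05 on the log2 scale. Of 16 further adaptors, kinases and brakes tested, 1 was called: Pik3ap1, which links the receptors to PI3-kinase, rose from 3, 6 and 4 counts to 19, 40 and 24 (adjusted p = 1.08e-04). Of those 16, 11 were under the p limit alone, 5 higher and 6 lower, beside 58.7% of all tested genes, with 17.7% called. Ticam2 was not analysed here.

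Of the helicase genes, Ifih1, which encodes the sensor MDA5, rose and Dhx58 fell. Ifih1 (chromosome 2 from 62595798 to 62646255) had read counts of 112, 93 and 113 under the WT label against 487, 612 and 527 under the KO label. These correspond to 3.30 ± 0.451 and 14.8 ± 1.11 CPM (SD, n = 3 each), with no library of one group near the other. The log2 fold change was 2.17 ± 0.10 (SE, edgeR adjusted p = 1.82e-09), or 4.49-fold, the largest of the 10 members, and 2.61% of tested genes had one at least as high. The value stayed between 2.05 and 2.23 under every scaling and with any 1 library left out. The only other gene tested within 100000 bases, Gca, at a gap of 18030 bases, had 261, 283 and 267 counts under the WT label and 734, 850 and 710 under the KO label, a log2 fold change of 1.32 (adjusted p = 1.05e-09 from edgeR). Gca was looked up after its neighbour's values were seen. Within the same distance, 1 of 2 genes near Tlr2 was called higher. Near Tlr3 1 of 3 was called higher and 1 lower, and near Ticam1 2 of 7 higher and 1 lower. Of the genes near Myd88, Dhx58, Mavs, Trim25 and Zbp1, 0 were called. Over all tested genes 11.6% were called higher and 6.10% lower, and nothing about location is read from these counts. A part of location in these changes was not tested.

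Dhx58, which encodes LGP2, the helicase without signalling domains that modulates its relatives, had read counts of 171, 168 and 258 under the WT label against 120, 151 and 104 under the KO label (chromosome 11 from 100694884 to 100704271). Its CPM were 6.18 ± 1.66 and 3.39 ± 0.237. The groups did not overlap, but the third library labelled WT stood above the rest of its group. The log2 fold change was -0.86 ± 0.16 (SE, edgeR adjusted p = 6.05e-04), and without that library it was -0.62, still called. An antisense gene, Dhx58os, shares 4.31% of its exonic bases. RIG-I, read from Ddx58, had 1796, 1777 and 2171 counts under the WT label and 1494, 1788 and 1500 under the KO label, a log2 fold change of -0.45 ± 0.07 (SE, edgeR adjusted p = 1.63e-04), under the fold limit.

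Per kilobase of exon, the order of these helicases changed between the groups. The length is the union of all annotated exons, not that of 1 transcript, and the order of genes depends on it. In the libraries labelled WT, Ddx58 had 8.43 ± 1.09 CPM per kilobase, Dhx58 1.89 ± 0.507 and Ifih1 0.404 ± 0.0552. In those labelled KO, Ddx58 had 6.17 ± 0.242, Ifih1 1.81 ± 0.136 and Dhx58 1.04 ± 0.0723. Ifih1 was thus below Dhx58 in each library labelled WT and above it in each labelled KO.

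**Figure D2:**
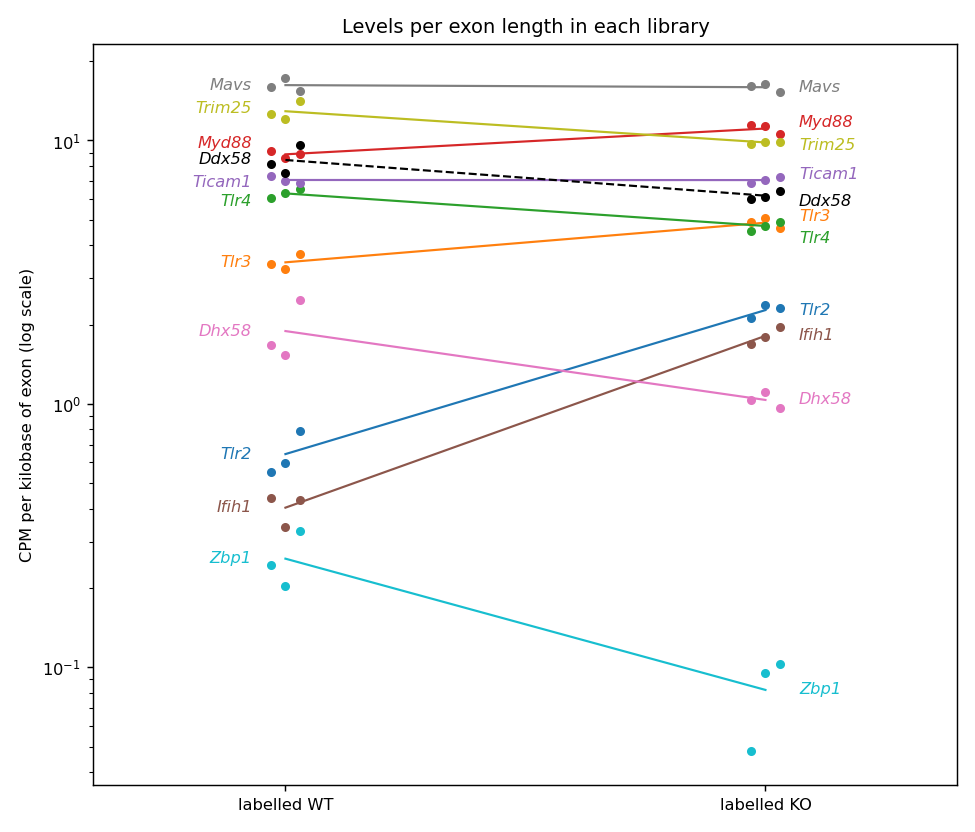
CPM per kilobase of exon (log scale) of the 10 members and of Ddx58 (dashed) in each library, with lines joining the group means. The lines of Ifih1 and Dhx58 cross, as Ifih1 goes from 0.404 to 1.81 and Dhx58 from 1.89 to 1.04, while Mavs stays at the top in both groups.

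On the same scale Mavs had the highest level of the 10 members in both groups, 16.2 ± 0.976 CPM per kilobase under the WT label and 15.9 ± 0.534 under the KO label. Under the WT label it was followed by Trim25, Myd88, Ticam1, Tlr4, Tlr3, Dhx58, Tlr2, Ifih1 and Zbp1, and no neighbours in that order had overlapping ranges over the 3 libraries. Under the KO label the order was Mavs, Myd88, Trim25, Ticam1, Tlr3, Tlr4, Tlr2, Ifih1, Dhx58 and Zbp1. There the ranges of Tlr3 (4.88 ± 0.209) and Tlr4 (4.74 ± 0.180) overlapped, and the other neighbours did not.

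Mavs itself (chromosome 2 from 131234063 to 131248025) had read counts of 1668, 1941 and 1650 under the WT label against 1908, 2280 and 1693 under the KO label, giving 54.3 ± 3.27 and 53.3 ± 1.79 CPM. The ranges overlapped, and edgeR gave a log2 fold change of -0.03 ± 0.05 (SE, adjusted p = 0.651). Trim25 (chromosome 11 from 88999376 to 89020293) had 2275, 2317 and 2591 counts under the WT label and 1984, 2361 and 1882 under the KO label. That is 74.3 ± 6.17 and 56.6 ± 0.497 CPM without overlap, a log2 fold change of -0.39 ± 0.05 (SE, edgeR adjusted p = 2.50e-05) under the fold limit. Rnf135, another ubiquitin ligase tied to RIG-I, had a log2 fold change of 0.10 (adjusted p = 0.293 from edgeR).

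Behind MAVS, the kinase gene Tbk1 had 93.9 ± 3.79 CPM under the WT label against 91.4 ± 1.49 under the KO label (adjusted p = 0.361 from edgeR). Irf3, the factor TBK1 phosphorylates, had a log2 fold change of 0.27 (adjusted p = 6.18e-05) and Traf3, which recruits the kinases, one of -0.19 (adjusted p = 5.83e-04), both under the fold limit. Irf7, an interferon-raised relative of Irf3, had 318, 261 and 421 counts under the WT label and 101, 120 and 112 under the KO label, and fell 3.42-fold (adjusted p = 2.07e-06 from edgeR). It was the 1 gene called among the 16 tested of this list. Of those 16, 4 were higher and 5 lower by the p limit alone, beside 29.9% and 28.8% of all tested genes, with 17.7% called.

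The 18 other RNA sensors and regulators were mostly lower under the KO label. Of them 3 fell and 0 rose, beside 6.10% and 11.6% of all tested genes. By the p limit alone 13 were lower and 1 higher, beside 28.8% and 29.9%, with a median log2 fold change of -0.176. Ddx60, a helicase raised by interferon, had read counts of 44, 32 and 57 under the WT label against 5, 6 and 7 under the KO label, 8.25-fold lower (adjusted p = 6.54e-06 from edgeR). Zcchc3, a nucleic acid binding cofactor of RIG-I and MDA5, had 206, 224 and 217 counts against 53, 97 and 65, 3.43-fold lower (adjusted p = 1.54e-07). Nlrx1, a mitochondrial protein described as a brake on MAVS, had 84, 106 and 83 against 54, 59 and 53, 1.87-fold lower (adjusted p = 1.40e-04). The 1 higher gene was G3bp1, a stress granule protein, with a log2 fold change of 0.14.

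Zbp1 had the fewest reads of the members and the largest decrease. It had read counts of 27, 24 and 37 under the WT label against 6, 14 and 12 under the KO label (chromosome 2 from 173206612 to 173218923). Its CPM were 0.912 ± 0.226 and 0.290 ± 0.105, with every library labelled KO under each labelled WT. The log2 fold change was -1.64 ± 0.31 (SE, edgeR adjusted p = 6.01e-04), or 3.11-fold lower, and it lay between -1.80 and -1.38 with 1 library left out. Its standard error is the largest of the 10 members.

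The kinase that ZBP1 engages changed in the opposite direction. Ripk3 had 24, 32 and 22 counts under the WT label and 170, 207 and 144 under the KO label, and rose 5.84-fold (log2 fold change 2.55 ± 0.15, SE, edgeR adjusted p = 1.76e-08). Mlkl, which RIPK3 activates in necroptosis, had 663, 680 and 686 counts against 1103, 1228 and 972, a log2 fold change of 0.52 (adjusted p = 1.10e-06) under the fold limit. Adar, whose product edits double-stranded RNA, had overlapping ranges and an adjusted p of 0.0692. Of the 13 tested genes of this list Ripk3 alone rose, and Cgas, the cytosolic DNA sensor, and Ifi203 fell, by 0.96 and 1.15 on the log2 scale. Ifi203 belongs to a family of close relatives among which reads may have been divided. By the p limit alone 4 were higher and 8 lower, beside 29.9% and 28.8% of all tested genes, with 11.6% called higher and 6.10% lower.

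**Figure D3:**
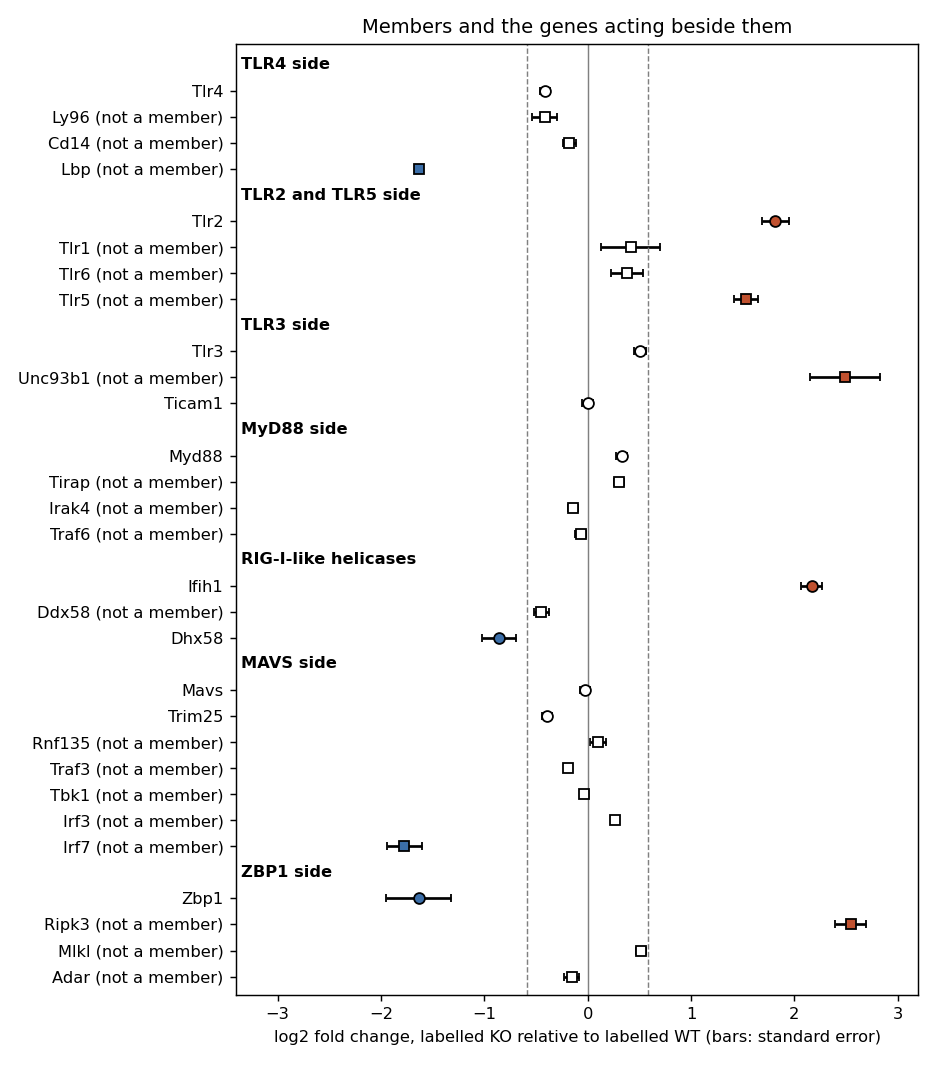
Log2 fold change (x axis) of the members (circles) and of genes that act beside them (squares), labelled KO relative to labelled WT, with bars for the standard error and dashed lines at 1.5-fold. Filled marks are genes called higher (red) or lower (blue): Ifih1 at 2.17 stands against Ddx58 at -0.45 and Dhx58 at -0.86, and Ripk3 at 2.55 against Zbp1 at -1.64.

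The wells labelled WT differed in the interferon-raised genes, and some members had the same order of wells. Over 19 interferon-induced effectors with a row here, such as Isg15 and Ifit1, the summed level was 496, 432 and 597 CPM under the WT label against 276, 284 and 291 under the KO label. Within the WT label, all 19 were highest in the third library, and 18 were lowest in the second. Dhx58, Zbp1, Trim25 and Tlr3 had the same order of these 3 libraries, with the third highest and the second lowest. Tlr2 and Tlr4 were also highest in the third but lowest in the first. The share of all genes with such an order was not counted, so nothing particular to the members is read from it. Dhx58 lay 0.42 above its group mean on the log2 scale in the third and -0.27 from it in the second, and Zbp1 0.37 and -0.32. Ifih1 was lowest in the second library too (-0.24) and was 0.13 and 0.11 above its group mean in the first and the third. Ticam1 and Mavs were lowest in the third. The part of this spread in the differences between the groups was not tested, and the calls of Dhx58 and Zbp1 held without the third library, at -0.62 and -1.43.

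**Figure D4:**
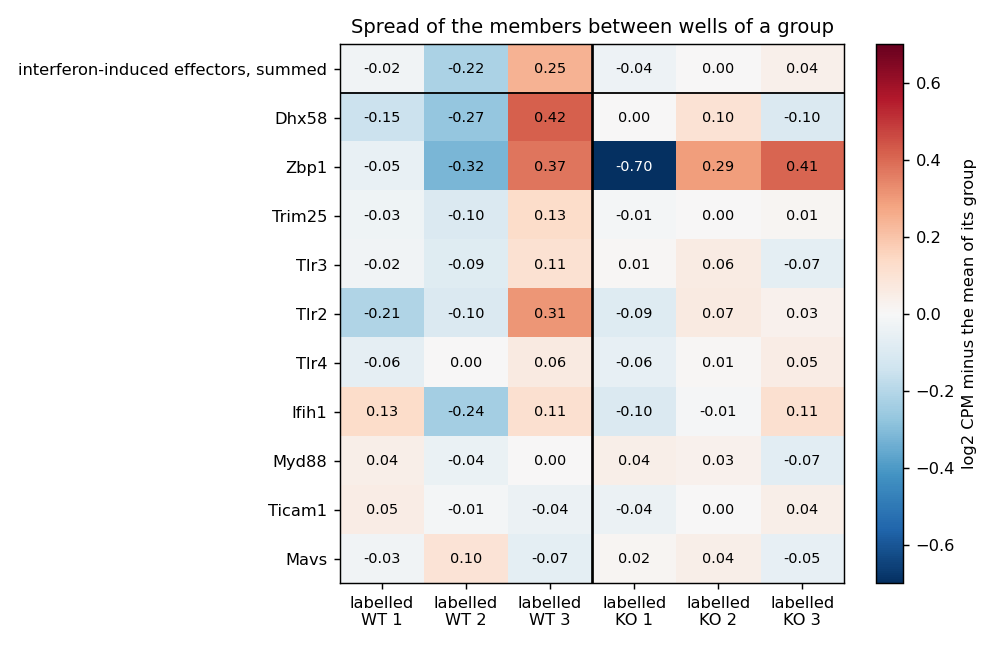
Each cell gives the log2 CPM of a library minus the mean of its group, for the 10 members and, in the top row, for the summed interferon-induced effectors. In the column of the third library labelled WT the summed effectors are at 0.25, Dhx58 at 0.42 and Zbp1 at 0.37, while Mavs is at -0.07.

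All 19 of these effectors had an adjusted p under 0.05 with lower levels under the KO label, beside 28.8% of all tested genes. Of them 14 were past the fold limit, beside 6.10% of all, and their median log2 fold change was -1.46. The largest changes were in Ifi27l2a at -3.80, Ifi44 at -3.53 and Oas2 at -3.19, the last from a gene family with close relatives. Ifih1, which interferon also raises, was 4.49-fold higher in the same libraries. Of 14 transcripts induced through Toll-like receptors, 2 rose and 3 fell, beside 11.6% and 6.10% of all tested genes. Saa3, an acute phase protein, had 3, 3 and 2 counts under the WT label and 30, 29 and 18 under the KO label, and was called higher. Nfkbiz, which encodes a nuclear cofactor of NF-kB, had 26.7 ± 0.440 and 61.5 ± 1.27 CPM and rose 2.30-fold (adjusted p = 4.79e-11 from edgeR). The chemokine gene Ccl5 had 32, 41 and 31 counts against 0, 2 and 2 and was called lower. Cxcl10, another chemokine gene, had 57, 30 and 26 against 9, 13 and 12, 3.75-fold lower. Both directions depend on the group labels, with which the counts of Gli2 and Gli3 conflict. Vcam1, the third to fall, had a log2 fold change of -0.59, next to the fold limit. It lay between -0.62 and -0.53 under other scalings or with a library left out, and lost its call under upper-quartile and total scaling and without replicate 2 or 3 of either group. Nfkbia, the inhibitor that NF-kB activity raises, had 33.2 and 33.8 CPM in the groups (adjusted p = 0.641 from edgeR). Tnfaip3, another brake that NF-kB raises, had a log2 fold change of -0.35 (adjusted p = 2.22e-05) and the cytokine gene Il6 one of 0.44 (adjusted p = 0.00759), both under the fold limit.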

How the data were processed

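Polyadenylated RNA libraries of 6 wells were sequenced in the study. Per the labels, the submitters' processing notes name STAR 2.7.2b, featureCounts, limma and GRCm38.p6, and the annotation and the strand setting are not given in the sources used here. The authors deposited raw counts of reads per gene, without normalization, and log2 CPM produced with voom in limma. The 14831 genes listed have been filtered on low counts, as the smallest sum over the 6 libraries is 20. Groups were taken from the genotype labels, and the counts were matched to libraries by title.

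The tests used edgeR 4.0.16 under R 4.3.3 (TMM, filterByExpr, quasi-likelihood F test, 6 libraries, no covariate), which left 14289 genes. Standard errors were taken from the log2 fold change and its F statistic. Levels per length use the union of exons in GENCODE M21, and 1157 genes without a symbol were named from it. Totals gave a floor of 3 counts at 0.0720 to 0.0957 CPM, and replicate pairs differed by more than sampling noise, at chi-square values of 2.51 to 7.71 for each degree of freedom. The test was checked on simulated counts. Alternatives were RLE, upper-quartile and total scaling, stricter and no filters and other fold limits, limma 3.58.1 on the counts and on the deposited log2 values, DESeq2 1.42.0, and leaving out each library. The members and lists were chosen with earlier results of these data known. Named genes are the members, the Hedgehog check genes and the genes acting directly with a member. Up to 3 called genes with the largest change from each list are named too. Gca, Acaa1a, Nfkbia, Nfkbiz, Tnfaip3, Il6, Vcam1, G3bp1, Isg15, Ifit1, Hsp90b1, Cnpy3 and the cell type markers are named outside that rule, after their values were seen.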

Additional observations from a re-analysis of the deposited data

How the results depend on the processing

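Ifih1, Tlr2, Dhx58 and Zbp1 kept their directions in every alternative in which they were tested, and their calls except for Dhx58 at the 2-fold limit. Zbp1 was not tested under the stricter filter, a minimum of 10 reads in all 6 libraries. There 1 member was called lower, and 3 listed pathway genes rose. Without a fold limit 4 members were higher and 4 lower, 22 listed pathway genes rose and 59 fell, and 4277 and 4114 of all genes did. At 2-fold 1 member was called lower (Zbp1), and 1052 and 404 of all genes were called higher and lower. Ticam1 and Mavs, which did not pass in any setting, changed sign: Ticam1 was 0.056 under upper-quartile scaling, 0.033 with library totals and 0.0059 with the stricter count filter, and Mavs 0.031 and 0.0086 under those scalings. With a library left out Ticam1 lay between -0.024 and 0.024 and Mavs between -0.063 and 0.022. No scaling moved the median of all genes by more than 0.06. Among other listed genes named with a call, Vcam1 alone lost it under another scaling or with a library left out. Gca, which is in none of the lists, was not checked in this way. No paired analysis was possible because the labels give no replicate numbers shared between the groups.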
